A study of Mus musculus with 6 samples.

Results

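The early response to imidazole was read in mouse fibroblasts whose only introduced Src kinase was the mutant R388A/Y527F, by setting the array taken after 1 h of imidazole against the array taken before it. A gene was kept when its signal was 100 or more on either array and when the sign of the change agreed in both deposited summaries of the arrays and in every probe set of the gene. Of 18193 named genes, 7924 had a signal of 100 or more, and 2912 of these met the rule. In that set 1100 genes, 13.9% of the 7924, were higher at 1 h and 1812 genes, 22.9%, were lower. The 2 samples are part of a set of 6, with 1 array for each combination of line and time, so no difference has a replicate check and none carries a test. Higher and lower therefore describe 2 arrays.

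Src is a tyrosine kinase that passes signals from integrins and growth factor receptors to the cytoskeleton and to transcription. Chemical rescue is a way to switch such a kinase on in living cells: a catalytic arginine is replaced by alanine, which leaves an almost inactive enzyme, and the small base imidazole fills the gap and restores catalysis. In fibroblasts, active Src is known for loosening focal adhesions and actin stress fibres and for signalling through the ERK and STAT3 pathways.

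The cells were SYF cells, embryonic fibroblasts of mice that lack Src, Yes and Fyn. The R388A/Y527F groups were stably transfected with the mutant that imidazole can rescue, and were starved of serum overnight and then given 5 mM imidazole for 1 h, or collected with no imidazole at 0 h. The D386N/Y527F groups carried a mutant in which the catalytic aspartate is replaced and which imidazole does not rescue, with the same starvation, dose and times. Both mutants share Y527F, which removes the inhibitory tail tyrosine, and both lines also have a 12 h array with imidazole. Each line is a separate transfected population under hygromycin selection, and whether it is a clone or a pool is not stated. The labels state no mock treatment of the 0 h cells, so imidazole and the added hour of culture cannot be told apart within a line.

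The arrays were alike in the measures of quality at hand. On all 6 the trimmed mean signal was 150.0, and between 12214 and 12728 genes stood above the floor of 20.4. The ratio of 3′ to 5′ Gapdh signal was 0.820 at 1 h and 0.803 at 0 h in R388A/Y527F, and that of actin was 1.14 and 1.16. Of 13 fibroblast markers 9 had a signal of 100 or more, among them vimentin, Vim, at 9264.9 at 1 h and 7538.3 at 0 h. Of the markers of other tissues, 0 adipocyte and 0 endothelial genes reached 100, with 1 muscle, 1 epithelial, 2 neural and 3 haematopoietic genes. The summed signal of the 10 named haematopoietic markers was 385.8 at 1 h and 659.6 at 0 h, and that of the 12 muscle markers 244.9 and 392.4. A single gene made most of each gap: Zap70 had 24.8 at 1 h and 186.8 at 0 h, and Myoz1 had 29.3 and 123.5. Their log2 ratios in the second summary were -0.16 and 0.01. The part of these markers in the results was not tested, and in bulk RNA fewer cells of a type and less RNA per cell cannot be told apart.

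Src, Yes1 and Fyn gave no check of the labels, because the tables leave it unknown whether their probes lie in deleted sequence or can read the transfected Src. The Src probe set used had 19.1 at 1 h and 66.9 at 0 h, and another had 30.9 and 37.8. Fyn had 212.9 at 1 h and 226.0 at 0 h, with log2 ratios of -0.09 and -0.11 in the 2 summaries. The probe set used for Yes1 had 61.1 at 1 h and 62.7 at 0 h.

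The change at 1 h was small and leaned towards lower signals. Over the 7924 genes the median log2 ratio of 1 h over 0 h was -0.03 in the main (GCOS) summary, with an SD across genes of 0.24, and -0.05 in the second, with an SD of 0.18. Only 7 genes (0.0883%) were at least 2-fold higher in the GCOS signal and 14 (0.177%) at least 2-fold lower, and 0 genes passed 2-fold in both summaries. At 1.5-fold in both summaries, 5 genes (0.0631%) were higher and 30 (0.379%) lower. Of these 35 genes, 18 had every probe set in the same direction, 1 higher and 17 lower. The other 4 higher and 13 lower genes had at least 1 probe set with the opposite sign in at least 1 summary. The plot of both summaries shows how closely they followed each other, with a Pearson correlation across genes of 0.58, given as a description since both come from the same arrays.

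**Figure D1:**
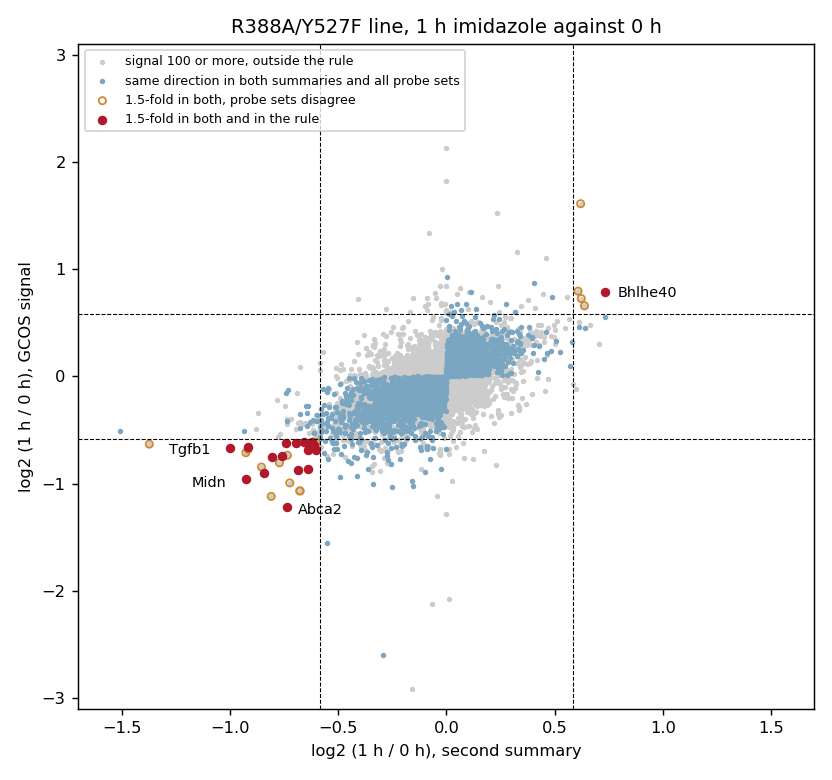
Each point is 1 of the 7924 genes, with the log2 ratio of 1 h over 0 h in the R388A/Y527F line in the second summary (x axis) and in the GCOS signal (y axis). Dashed lines mark 1.5-fold. In the lower left corner lie 17 genes in red, against 1 red gene, Bhlhe40, in the upper right, and orange circles mark genes past both lines whose probe sets disagree.

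The D386N/Y527F line, treated in the same way, shows the change under imidazole without a rescued kinase. There 7958 genes reached a signal of 100, and the same rule kept 730 higher genes (9.17%) and 2052 lower genes (25.8%). At least 2-fold in the GCOS signal, 13 genes (0.163%) were higher and 11 (0.138%) lower. At 1.5-fold in both summaries, 5 genes (0.0628%) were higher and 2 (0.0251%) lower. At this size the counts of higher genes were equal in the lines and those of lower genes were 30 in R388A/Y527F and 2 in D386N/Y527F. The counts by the rule and by 2-fold gave other contrasts: the rule kept fewer lower genes in R388A/Y527F than in D386N/Y527F, and 2-fold gave 14 and 11. Across the 7924 genes the changes of the 2 lines, which share no array, had a Pearson correlation of -0.09 in the GCOS signal and -0.10 in the second summary. Of the R388A/Y527F genes past 1.5-fold, 2 higher (0.0252%) and 25 lower (0.315%) also differed by 1.5-fold from the change in D386N/Y527F in both summaries.

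**Figure D2:**
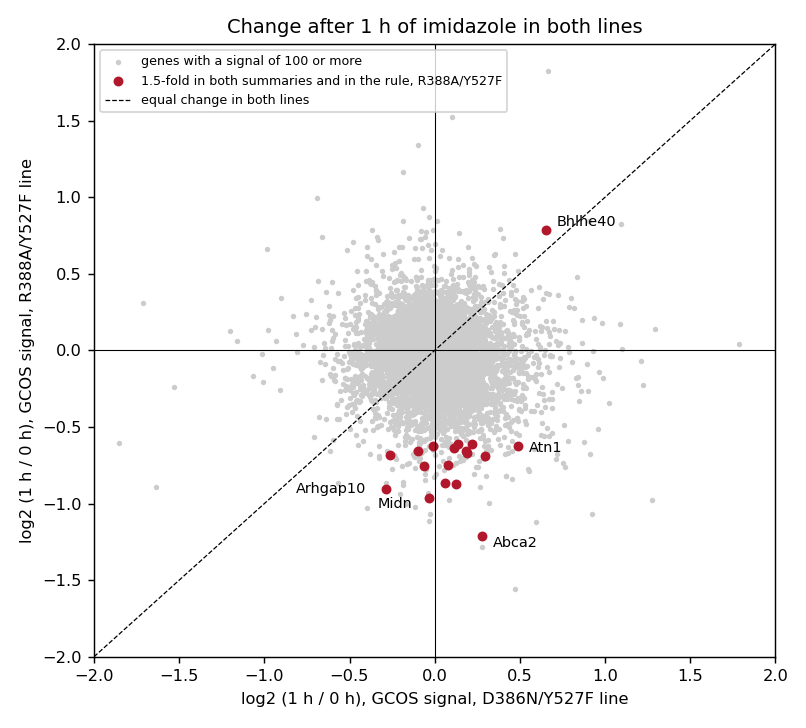
The log2 ratio of 1 h over 0 h in the GCOS signal is plotted for the R388A/Y527F line (y axis) against the D386N/Y527F line (x axis), 1 point per gene, with 6 genes beyond the limits of the axes not drawn. The 17 red points of the lower group lie below -0.58 on the y axis and between -0.28 and 0.49 on the x axis, and Bhlhe40 lies near the dashed line of equal change.

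Bhlhe40 was the only gene of the rule at least 1.5-fold higher in both summaries. It encodes a basic helix-loop-helix repressor that acts in the circadian clock and answers many stimuli. Its GCOS signals were 141.9, 244.8 and 269.8 at 0, 1 and 12 h in R388A/Y527F, beside 215.8, 339.0 and 318.5 in the D386N/Y527F line. The 0 h array of R388A/Y527F was the lowest of the 6, and both lines were higher at 1 h and at 12 h than at 0 h. At 1 h the log2 ratio was 0.79 in R388A/Y527F (0.73 in the second summary) and 0.65 in D386N/Y527F (0.63). The line without a rescued kinase was thus higher at 1 h by nearly the same amount.

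The next 11 higher genes, ranked by the smaller of their 2 ratios, had GCOS ratios of 0.36 to 0.74. Uroc1 encodes urocanase, an enzyme of histidine breakdown whose substrate carries an imidazole ring. It had 192.8 at 1 h against 115.5 at 0 h in R388A/Y527F, the highest of the 6 arrays, and 120.6 against 125.7 in D386N/Y527F. The other Uroc1 probe set lay under the floor on all 6 arrays in both summaries, so the change rests on 1 probe set. Septin10, a GTPase of septin filaments, had 253.5 at 1 h against 172.4 at 0 h, and 227.4 against 270.4 in D386N/Y527F. Uroc1 thus stood above all other arrays at 1 h in the GCOS signal, while Septin10 was about as low at 12 h, with 177.5, as at 0 h.

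Secreted and membrane proteins made up part of this group. Grem1, an antagonist of bone morphogenetic proteins, had 361.1 at 1 h against 262.6 at 0 h in R388A/Y527F (log2 ratio 0.46, 0.61 in the second summary), and 380.2 at 12 h. F3, tissue factor, the starter of blood clotting and an early response gene in fibroblasts, had 334.8 against 244.5 (0.45, 0.64), and 161.9 at 12 h. In D386N/Y527F the ratio of F3 was 0.34 (0.38) and that of Grem1 0.22 (0.01), so F3 was higher at 1 h in both lines. The cadherin family gene Pcdh17 was higher by 0.36 (0.39), with 108.9 against 85.0 in R388A/Y527F. This signal was well below that of the other line, 340.3 against 349.7 in D386N/Y527F. The other Pcdh17 probe set was nearly flat in R388A/Y527F, at 0.10 (0.01).

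The other 6 were genes of varied function. Gadd45g, a stress sensor of growth arrest, had a ratio of 0.41 (0.46), and Diaph3, a formin that nucleates actin filaments, 0.46 (0.34). Pi4kb, a Golgi lipid kinase, stood at 0.46 (0.38), and Srp19, of the signal recognition particle, at 0.38 (0.34) with a signal of 1252.0 against 964.7. The other Pi4kb probe set, which was dim, stood at 0.02 (0.01). The mitochondrial carrier gene Slc25a53 and Cdiptos, an antisense transcript, had signals of 108.2 and 106.0 at 1 h, close to the minimum. Of all 12 genes, 7 were also higher in D386N/Y527F in the GCOS signal and 5 lower. At R388A/Y527F 1 h, 6 had their highest signal of the 6 arrays, against 16.5% of the 7924 genes. Among the 1100 higher genes of the rule this share was 41.8%. The 12 were chosen for a high 1 h signal relative to 0 h, so this count is a description.

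The 17 lower genes made up nearly all of the genes of the rule past 1.5-fold. Their log2 ratios lay between -1.21 and -0.61 in the GCOS signal and between -0.9998 and -0.60 in the second summary, with medians of -0.68 and -0.69. All 17 had their lowest GCOS signal of the 6 arrays at R388A/Y527F 1 h, which was so for 20.7% of the 7924 genes, and 16 of them in the second summary, where Dhdds was lowest at 12 h. The genes were chosen for a low 1 h signal relative to 0 h, so this count is a description. In D386N/Y527F, 11 of the 17 were higher at 1 h and 6 lower, and their median was 0.11 (0.01).

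Midn led by the smaller of its 2 ratios. Midnolin, its product, carries nuclear proteins, among them products of immediate early genes, to the proteasome. GCOS signals of 384.1, 197.4 and 324.6 at 0, 1 and 12 h in R388A/Y527F compared with 398.5, 388.8 and 340.3 in D386N/Y527F. The 1 h array alone stood low, by -0.96 on the log2 scale (-0.93 in the second summary) against 0 h, and the change in D386N/Y527F was -0.04 (-0.05).

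Several of the lower genes act on adhesions, membranes and actin. Arhgap10 had 131.3, 70.1 and 146.8 at 0, 1 and 12 h in R388A/Y527F, with a ratio at 1 h of -0.91 (-0.84) that compared with -0.28 (-0.03) in D386N/Y527F. Git1, an Arf GTPase-activating scaffold of focal adhesions, had 201.4, 109.8 and 184.6, with ratios of -0.88 (-0.69) in R388A/Y527F and 0.12 (0.13) in D386N/Y527F. Both were low on a single array and back near the 0 h level at 12 h. Mrtfa encodes a coactivator of serum response factor that is held in the cytoplasm by monomeric actin, and it had 506.9, 314.1 and 454.0. Its ratio was -0.69 (-0.60) in R388A/Y527F and 0.29 (0.06) in D386N/Y527F. Palm, paralemmin, which coats the inner face of the plasma membrane, had 310.6, 184.0 and 323.2, with a ratio of -0.76 (-0.81) against -0.06 (0.01) in D386N/Y527F. The other Palm probe set stood at -0.24 (-0.71) in R388A/Y527F. Raver1, an RNA-binding protein that also binds vinculin, had 549.8, 348.7 and 501.2, with -0.66 (-0.92) against -0.10 (0.00).

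Tgfb1, the gene of the cytokine TGF-beta 1, had 375.2, 235.6 and 419.4 at 0, 1 and 12 h in R388A/Y527F, beside 364.9, 416.9 and 485.8 in the D386N/Y527F line. Its ratio at 1 h was -0.67 in R388A/Y527F (-0.9998 in the second summary) and 0.19 (0.00) in D386N/Y527F. Its other probe set lay under the floor in the second summary and showed no change there. In D386N/Y527F the signal stood higher at each later time.

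Genes of the secretory pathway and of lipid handling formed another part. Man1b1, a mannosidase that trims glycans in quality control of secretory proteins, had 300.7, 179.2 and 281.5 at 0, 1 and 12 h in R388A/Y527F (-0.75, -0.76). Dhdds, a subunit of the enzyme that makes dolichol, the lipid carrier of glycans, had 175.3, 114.8 and 136.9 (-0.61, -0.62) in the probe set used. Its other probe sets were nearly flat at 1 h, at -0.05 (-0.06) and -0.09 (-0.14). Atf6b, a membrane-bound transcription factor of the endoplasmic reticulum stress response, had 127.8, 79.5 and 115.3 (-0.68, -0.64). Atf6b was lower in D386N/Y527F too, by -0.26 (-0.28), while Man1b1 stood at 0.08 (0.11) there. Abca2, a lipid transporter of endosomes and lysosomes, had the largest GCOS ratio of the 17, -1.21 (-0.74), from 75.2 at 1 h against 174.5 at 0 h. In D386N/Y527F it was higher at 1 h, 249.2 against 205.9, so its change differed between the lines by -1.49 (-1.21).

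The nuclear members were Ring1, a ubiquitin ligase of the Polycomb complex, at -0.87 (-0.64), Atn1, a corepressor, at -0.63 (-0.74), Cc2d1a, a repressor and signalling scaffold, at -0.66 (-0.63), and Scaf1, which binds the tail of RNA polymerase II, at -0.61 (-0.66). Atn1 moved furthest the other way in D386N/Y527F, 265.7 at 1 h against 189.1 at 0 h, a ratio of 0.49 (0.78). Tmcc2, a protein of the endoplasmic reticulum membrane, stood at -0.62 (-0.69), and Swt1, known in yeast as an RNA endonuclease, at -0.64 (-0.61). The other probe set of Tmcc2 stood at -0.62 (-0.41), and that of Swt1 at -0.004 (-0.22). At 12 h, 14 of the 17 genes had less than 50% of their 1 h change left in the GCOS signal, as the plot of signals by time shows, and 13 in the second summary. In the GCOS signal this was so for 4286 of the 7924 genes and for 1037 of the 1812 lower genes of the rule. The 17 were chosen for a low 1 h signal, so their count is a description. The 1 h and 12 h ratios share the 0 h array. Among the 17, the exceptions in the GCOS signal were Ring1, Abca2 and Dhdds, with 12 h ratios of -0.55, -0.61 and -0.36. In the second summary they were Ring1 (-0.42), Dhdds (-0.72), Cc2d1a (-0.39) and Atn1 (-0.39).

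**Figure D3:**
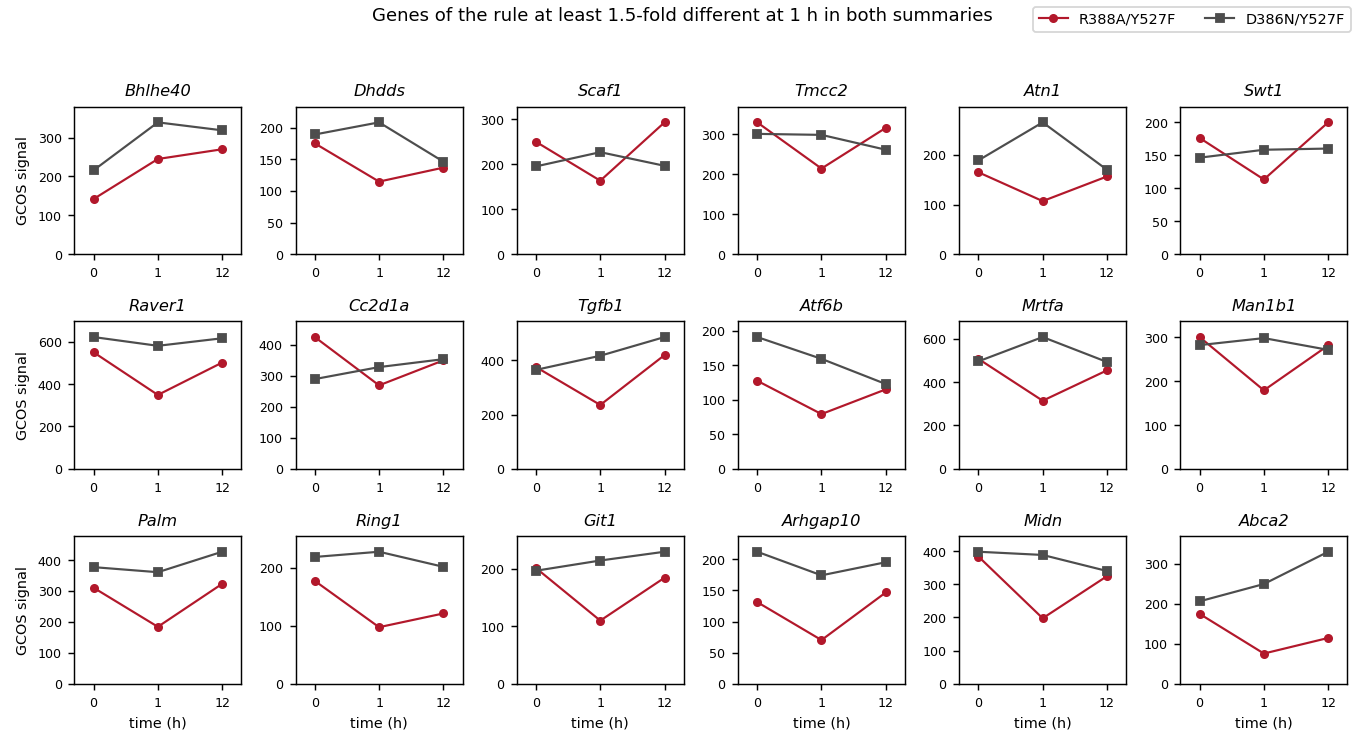
GCOS signals (y axis, from 0) at 0, 1 and 12 h (x axis, evenly spaced) of the 18 genes of the rule at least 1.5-fold different at 1 h in both summaries, with 1 array per point, R388A/Y527F in red circles and D386N/Y527F in grey squares. In 17 panels the red line dips at 1 h, to between 70.1 and 348.7, below all other points of the panel, and Bhlhe40 is higher at 1 h in both lines.

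Of the 13 lower genes with disagreeing probe sets, 2 encode parts of the transcription machinery. Polr2a, the largest subunit of RNA polymerase II, had 1170.5 at 1 h against 1917.3 at 0 h in the probe set used (-0.71, -0.93), and Supt6, an elongation factor, 250.1 against 398.1 (-0.67, -0.63). Khsrp, an RNA-binding protein that speeds decay of AU-rich mRNAs, had 198.2 against 415.6 (-1.07, -0.68), and 0.92 (0.42) in D386N/Y527F. Among the 4 higher ones was Gclm, a subunit of the enzyme that starts glutathione synthesis, with 500.7 against 288.6 (0.79, 0.61). These genes were named after their values were seen, and at least 1 probe set of each had the opposite sign.

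Near the minimum signal, Irak2, Rnf135 and Znrd1as lay just inside, with their brighter array at 100.2, 100.2 and 100, and Ifih1, Tap2 and Cercam, taken among genes with 1 probe set, just outside, at 99.9, 99.9 and 99.7. Tap2, a peptide transporter of antigen presentation, had a ratio of -0.64 (-0.44) and would otherwise have entered the count of lower genes.

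The actin and serum response factor genes were set out next, because Srf and its coactivator Mrtfa were both lower. Serum response factor binds CArG boxes in promoters of actin and immediate early genes, its own promoter included. Its promoter is printed here, 300 bases from GRCm38.p6 on the minus strand at chr17:46556113-46556412, from RefSeq, with 2 CArG boxes in capitals that begin 82 and 62 bases before the gene's start.
Srf: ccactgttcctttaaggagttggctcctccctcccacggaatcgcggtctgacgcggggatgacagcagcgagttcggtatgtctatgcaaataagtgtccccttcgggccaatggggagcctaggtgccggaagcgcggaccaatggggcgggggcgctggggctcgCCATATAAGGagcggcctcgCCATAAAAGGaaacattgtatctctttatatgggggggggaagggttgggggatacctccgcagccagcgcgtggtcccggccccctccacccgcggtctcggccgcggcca
A CArG box, searched by its consensus on both strands in such windows, was found in 425 of 27025 mouse promoters (1.57%). It was found in 26 of 1516 matched promoters of the lower genes (1.72%), 13 of 908 of the higher genes (1.43%) and 86 of 6528 of all genes with a signal of 100 or more (1.32%). None of the 15 matched promoters among the 17 strongest lower genes held one. A match describes letters in a window and is not a binding site.

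In the probe set used, Srf had 88.2 at 1 h against 126.7 at 0 h in R388A/Y527F, the lowest and the highest of the 6 arrays. The ratio was -0.52 (-0.38 in the second summary). In D386N/Y527F it had 126.6 against 110.9, a ratio of 0.19 (-0.05), of opposite sign in the second summary. A brighter Srf probe set had 227.8 against 260.0 in R388A/Y527F, a ratio of -0.19 (-0.21). It had 362.7 against 360.3 in D386N/Y527F, so the R388A/Y527F 0 h array was not the highest there. Of 20 actin, SRF and YAP list genes with a signal of 100 or more, 2 (10%) met the rule as higher and 9 (45%) as lower, against 13.9% and 22.9% of all genes. The 9 were Mrtfa, Srf, the LIM proteins Ajuba (-0.45, -0.20), Tgfb1i1 (-0.32, -0.17) and Fhl2, the YAP target Ankrd1 (-0.22, -0.16), and the actin binders Flna, Cnn2 and Filip1l. Srf and Mrtfa, for which the list was set out, are among the 9, so part of the 45% was fixed in advance. Both higher genes were the cytoplasmic actins, Actb at 0.21 (0.04) and Actg1 at 0.27 (0.01), nearly flat in the second summary. The list's median was -0.07 (-0.17), beside -0.03 (-0.05) over all genes. These shares and medians over all genes are the background of every R388A/Y527F list that follows. For list counts in D386N/Y527F the background is 9.17% higher and 25.8% lower. The rule asks more of a gene with more probe sets, and the background is not matched for their number. The D386N/Y527F line had 2 higher and 8 lower of 21, so similar counts were seen without a rescued kinase.

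Immediate early genes are the transcription factors and other genes that growth signals switch on within minutes to an hour. Of 32 with a signal of 100 or more, 7 (21.9%) met the rule as higher and 9 (28.1%) as lower in R388A/Y527F, against 13.9% and 22.9%, and the median was 0.02 (-0.08 in the second summary, of opposite sign). Egr1, a zinc finger factor, had 1198.4 at 1 h against 1564.5 at 0 h (-0.38, -0.55), and Fos, of the AP-1 complex, 81.4 against 110.8 (-0.44, -0.31). Both were lower in D386N/Y527F as well, Egr1 at 1347.2 against 1732.4 (-0.36, -0.38) and Fos at 60.6 against 90.0 (-0.57, -1.05). Junb, another AP-1 subunit, stood at -0.23 (-0.17), and Myc at 0.19 (0.02). The higher members were small in size, such as the stress factor Atf3 at 0.13 (0.21) and the phosphatase Dusp1 at 0.07 (0.20). In D386N/Y527F, 9 of 27 were higher and 7 lower.

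Among ERK feedback genes and targets, 1 of 15 (6.67%) was higher and 5 (33.3%) lower, beside 13.9% and 22.9% of all genes, with a median of -0.11 (-0.15). The ETS factors Etv4 and Etv5, which ERK signalling induces, had 198.9 against 305.8 (-0.62, -0.27) and 213.7 against 268.7 (-0.33, -0.42) at 1 h and 0 h in R388A/Y527F. In D386N/Y527F their signals were 35.8 or lower on all 3 arrays, below the minimum, and their changes are not compared between lines. Dusp6, the ERK phosphatase, stood at -0.20 (-0.22), and Dusp4, another, was the higher one, 139.2 against 119.9 (0.22, 0.40).

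Regulators and partners of Src met the rule in few cases, and none as higher. Csk, the kinase that phosphorylates the inhibitory tail tyrosine of Src family kinases, had 309.4 at 1 h against 439.9 at 0 h in R388A/Y527F (-0.51, -0.55), the lowest of the 6 arrays, and 516.9 against 464.8 in D386N/Y527F (0.15, -0.07). The ubiquitin ligase gene Cblb had 116.1 against 148.7 (-0.36, -0.23). Of 6 Src family and regulator genes with enough signal, these 2 (33.3%) were lower and 0 higher, with a median of -0.25 (-0.17). Of 22 Src substrates and focal adhesion proteins, 3 (13.6%, below the 22.9% of all genes) were lower and 0 higher: the Ras inhibitor adaptor Dok1 (-0.34, -0.19), Arhgap35 (-0.30, -0.38) and the adaptor Shc1 (-0.08, -0.22). In the D386N/Y527F line that list had 2 higher and 1 lower of 22.

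Receptor tyrosine kinases gave 2 higher and 4 lower genes of 18, or 11.1% and 22.2%, close to the 13.9% and 22.9% of all genes. Ephb4, an ephrin receptor, had 277.0 at 1 h against 416.2 at 0 h in R388A/Y527F (-0.59, -0.58) and 432.3 against 347.5 in D386N/Y527F (0.32, 0.02). Tyro3, a receptor of the TAM family, had 194.0 against 315.8 (-0.70, -0.37), and 305.4 against 324.7 in the other line. The other Tyro3 probe set stood at -0.18 (-0.17) in R388A/Y527F. All 3 Fgfr1 probe sets were lower at 1 h in R388A/Y527F, by -0.22 (-0.13) in the dim one used and by -0.66 (-0.69) and -0.30 (-0.54) in the brighter ones, with 702.3 against 1107.4 and 774.3 against 954.7. In D386N/Y527F they stood at 0.72 (0.65), 0.25 (0.34) and -0.14 (0.13). In D386N/Y527F 5 of 16 receptors met the rule as higher and 0 as lower, beside 9.17% and 25.8% of all genes there. Of 12 growth factor ligands, Bdnf was higher (0.55, 0.13) and Vegfb (-0.32, -0.48), Fgf7 (-0.26, -0.22) and Btc lower.

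Of 17 NF-kB targets and chemokines, 5 (29.4%) were higher and 7 (41.2%) lower, against 13.9% and 22.9% of all genes. The lower side held factors and inhibitors of the pathway itself: Nfkbie, an inhibitor, at -0.67 (-0.52), Nfkb2, a subunit precursor, at -0.49 (-0.50) and Relb, a subunit, at -0.44 (-0.44). Nfkb2 was bright, 544.7 at 1 h against 764.4 at 0 h in R388A/Y527F, with 748.7 at 12 h. Relb had 180.1 against 244.9, and was lower in D386N/Y527F too (-0.35, -0.43), while Nfkb2 stood at 0.01 (0.11) there. The higher side held the chemokines Ccl2 (0.13, 0.22), Ccl7 (0.12, 0.31), Ccl5 and Cxcl10.

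Of 10 STAT3 receptors and targets, 1 (10%) was higher and 3 (30%) lower. The survival genes Bcl2l1 and Mcl1 were among the lower ones, Bcl2l1 with 244.3 at 1 h against 329.9 at 0 h (-0.43, -0.21) and Mcl1 with 844.1 against 940.5 (-0.16, -0.20). All 9 interferon-stimulated genes with enough signal met the rule, 4 as higher and 5 as lower, with a median of -0.18 (-0.14). Ifit1 had 182.8 against 258.7 (-0.50, -0.58) and Irf9, of the interferon-activated transcription factor, 96.2 against 127.3 (-0.40, -0.42), while Isg20, an exonuclease, was higher (0.22, 0.52). In D386N/Y527F, 3 of 12 were higher and 6 lower.

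TGF-beta, BMP and Id genes gave 4 higher and 5 lower of 22, or 18.2% and 22.7%, with the lower share close to the 22.9% of all genes. Beside Tgfb1, the ligand gene Tgfb3 was lower, 109.2 at 1 h against 149.6 at 0 h in R388A/Y527F (-0.45, -0.28), and 96.4 against 107.2 in D386N/Y527F (-0.15, -0.23). The higher genes were the antagonist Grem1 and the BMP-induced Id1 (0.11, 0.12), Id3 (0.05, 0.25) and Smad7 (0.11, 0.08). Wnt genes gave 0 higher and 3 lower (25%) of 12, also near that share, led by the receptor Fzd1 with 558.4 against 701.2 (-0.33, -0.39). Of 15 semaphorins and their receptors, 2 were higher and 5 lower, with Plxnd1 at -0.16 (-0.74) and Sema7a at -0.07 (-0.49), small in 1 summary and larger in the other. Among 8 Notch genes, Dtx3 was lower (-0.93, -0.41) and the receptor Notch2 higher (0.25, 0.29).

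**Figure D4:**
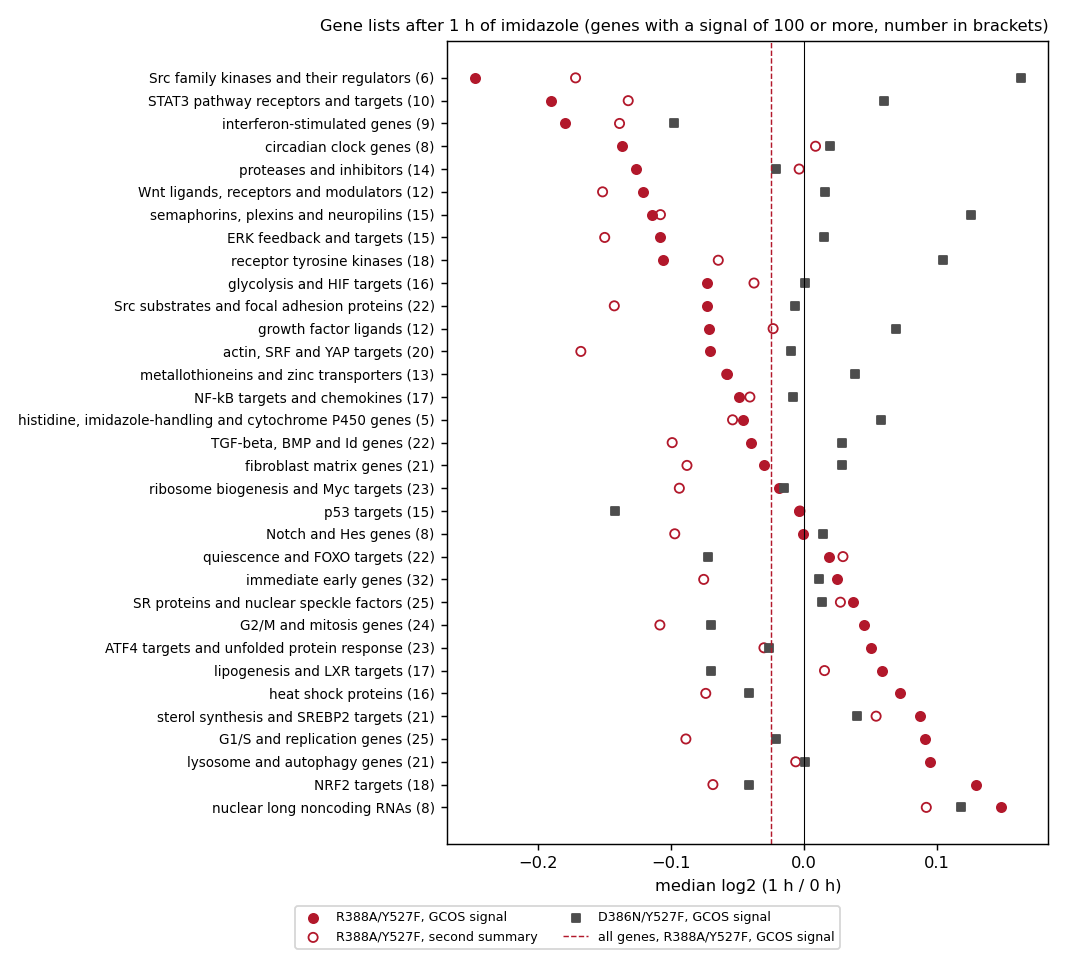
Median log2 ratio of 1 h over 0 h (x axis) of each gene list (y axis), over the members with a signal of 100 or more in R388A/Y527F, whose number is in brackets. Filled red circles are the GCOS signal and open ones the second summary in R388A/Y527F, grey squares the GCOS signal in D386N/Y527F, and the dashed line is the median of all genes, -0.03. Most list medians lie within 0.15 of 0, and for several lists the 2 summaries lie on opposite sides of 0.

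Metabolic and stress lists moved little, and the sterol list leaned to the higher side. In the sterol list 7 of 21 genes (33.3%, against 13.9% of all genes) were higher and 2 (9.52%, against 22.9%) lower, with a median of 0.09 (0.05), led by Insig1, the sterol-regulated anchor of SREBP in the endoplasmic reticulum, with 1031.6 at 1 h against 799.3 at 0 h (0.37, 0.25). The lower Dhcr7, of the last step of cholesterol synthesis, had 200.8 against 252.8 (-0.33, -0.24). D386N/Y527F had 6 higher and 3 lower of 22. Among 13 metallothioneins and zinc transporters, the metal-binding Mt2 was higher, 1925.9 against 1439.5 (0.42, 0.33), with 2 others, and 5 zinc transporters were lower, with GCOS ratios of -0.23 to -0.11. NRF2 targets had 3 higher and 2 lower of 18 and medians of opposite sign, 0.13 and -0.07, with heme oxygenase Hmox1 at 0.50 (0.16) and the inhibitor gene Keap1 at -0.34 (-0.20). Of 5 genes of histidine, imidazole handling and cytochrome P450 with enough signal, 0 met the rule, a list that does not hold Uroc1.

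Cell cycle genes gave 2 higher and 0 lower of 25 for G1/S, and 2 higher and 4 lower of 24 for G2/M. The inhibitor gene Cdkn1b, p27, had 378.5 at 1 h against 284.6 at 0 h in R388A/Y527F (0.41, 0.30) and 466.2 at 12 h, and its signal in D386N/Y527F was 545.0 against 585.7. The R388A/Y527F 0 h array was the lowest of the 6. The phosphatase genes Cdc25b and Cdc25c, which open mitosis, stood at -0.18 (-0.34) and -0.38 (-0.17).

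Malat1, a nuclear long noncoding RNA, had probe sets that shared a sign and differed widely in size. All 7 were higher at 1 h in R388A/Y527F. The probe set used by the selection had 194.9 at 1 h against 172.1 at 0 h, a ratio of 0.18 (0.17). The 3 probe sets whose record in the array design names Ramp2, but which the annotation now gives to Malat1, had ratios of 1.18 to 1.603 (1.27 to 1.92 in the second summary), and the 4 others 0.18 to 0.83 (0.17 to 0.82). The brightest of them had 1662.4 at 1 h against 733.2 at 0 h in R388A/Y527F and 1535.0 against 1539.8 in D386N/Y527F. For the 3, the R388A/Y527F 0 h array was far below the other 5, while the 1 h array lay within the range of the other 4. The 3 aligned over 45.1% to 48.9% of their target sequence, as did a probe set that the annotation still gives to Ramp2, against 90.7% or more for the others, and which transcript they read was not checked. Of 8 nuclear noncoding RNAs with enough signal, 3 met the rule as higher and 0 as lower, with a median of 0.15 (0.09). The median in D386N/Y527F was 0.12 (-0.05), of opposite sign in the second summary.

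**Figure D5:**
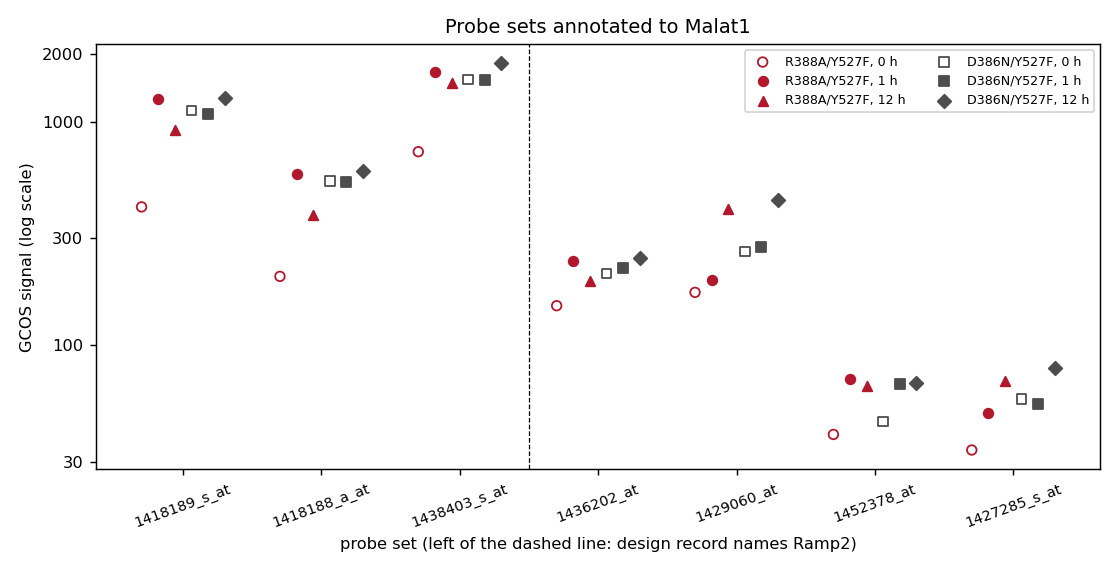
GCOS signal (y axis, log scale) of the 7 probe sets annotated to Malat1 (x axis) on all 6 arrays, 1 marker per array. Left of the dashed line are the 3 whose design record names Ramp2, where the open red circle, R388A/Y527F at 0 h, lies well below the other 5 markers. Among the 4 on the right it is also the lowest marker, by less.

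The base composition of the promoters was read over the same windows. The median GC content was 60.3% over 908 matched promoters of higher genes, 62.3% over 1516 of lower genes, 64.3% over 15 of the 17 strongest lower genes and 62.0% over 6528 of all genes with a signal of 100 or more. In the bin of 45 to 55% GC, 18.04% of 1175 genes were higher, and from 75% upwards 7.72% of 492. The share of lower genes was 22.3% and 22.8% in the same bins. Below 45% GC, 16.8% of 179 genes were higher and 18.4% lower, and from 65 to 75% GC 11.7% of 1945 and 24.9%. In the bins of 45 to 55% and from 75% upwards, the median log2 ratio was -0.01 (-0.03) and -0.05 (-0.07) in R388A/Y527F. In the D386N/Y527F line it was -0.02 (-0.09) and -0.01 (-0.05). Neither the part of base composition in the results, nor that of the hybridisation of single arrays, was tested.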

How the data were processed

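Total RNA of 6 samples, 1 per group, was amplified once and hybridised to Affymetrix MOE430 2.0 arrays, per the labels. The deposited values are linear intensities that the authors made with GCOS 1.3, per the submitters' processing notes, scaled to 1 trimmed mean. A deposited workbook holds the same intensities (0 differing values) and a second, linear summary of the same arrays, whose method is not given in the sources used here.

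Of 45101 probe sets, 34945 had 1 gene symbol in the platform annotation, 932 several and 9160 none. Each of 18193 genes took the probe set with the most specific suffix, then the highest mean signal, and levels are not compared between genes. Signals below the 40th percentile (20.4 in GCOS, 11.3 in the other summary) were set to that floor, and log2 ratios of 1 h over 0 h were taken. A ratio in brackets is that of the second summary. The members and gene lists were chosen with earlier results of these data known. The genes named were the 12 highest and 12 lowest of the rule by the smaller ratio, those past 1.5-fold in both summaries, up to 3 per list, and Src, Yes1, Fyn and Csk; others were chosen after their values were seen. Lists are described by counts and medians, with the shares and medians of all genes as their background.

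With 1 array per group no test was run, and the number of arrays limits the precision. The 1.5-fold rule in both summaries was run on simulated data. Their noise was smaller than the spread between the real arrays and was shared by the summaries. That run therefore cannot show how often unchanged genes pass the rule in real arrays. Alternatives changed the summary, normalization, floor, pseudocount, minimum signal, probe set rule, fold and baseline. Promoters came from RefSeq (GRCm38.p6), matched by symbol. Python 3.11.15, pandas 2.3.3 and NumPy 2.4.6 were used.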

Additional observations from a re-analysis of the deposited data

Results flagged for a closer look

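Among the 17 genes of the rule that were at least 1.5-fold lower at 1 h in R388A/Y527F, 8 had a change of opposite sign in D386N/Y527F in both summaries. Several of these D386N/Y527F changes were small, such as 0.18 (0.01 in the second summary) for Cc2d1a and 0.11 (0.03) for Swt1. The largest was 0.49 (0.78) for Atn1. The change in R388A/Y527F minus that in D386N/Y527F was -1.49 on the log2 scale for Abca2, -1.12 for Atn1, -1.0001 for Git1 and -0.98 for Mrtfa. It was -0.84 for Cc2d1a, -0.83 for Scaf1, -0.83 for Man1b1 and -0.75 for Swt1. In the second summary the 8 differences lay between -1.52 and -0.64. The differences were not tested, as each rests on 4 single arrays.

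Probe sets with no single gene symbol, which entered no count above, also passed 1.5-fold in both summaries in R388A/Y527F, 7 higher and 6 lower at 1 h of 1105 with a signal of 100 or more. In D386N/Y527F 1 was higher and 0 lower of 1089. Among named genes the R388A/Y527F calls were 5 higher and 30 lower, so the lean towards lower signals was not seen in the unnamed probe sets.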

How the results depend on the processing

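No setting that was read for single genes turned the sign of a named gene past 1.5-fold. For most settings this was fixed in advance. The rule already asks for the same sign in both summaries and in all probe sets, and a floor or pseudocount cannot reverse a ratio. Of the settings read for single genes, only quantile normalization could have turned these signs. The baseline of both 0 h arrays could also turn a sign, and it was not read for single genes. Of 122 named genes, Plk3 turned sign under quantile normalization, and Fyn and Yes1 with the mean of all probe sets. Of 35 list medians, 9 turned sign in the second summary, among them NRF2 targets (0.13 to -0.07), heat shock, G1/S, G2/M and immediate early genes, and 6 under quantile normalization. With the second summary alone 0 genes were higher and 2 lower by 2-fold, and 7 and 50 differed from D386N/Y527F by 1.5-fold. A pseudocount of 20 left 7 lower by 2-fold, 18 lower in both summaries, and 1 higher and 16 lower than in D386N/Y527F. A minimum signal of 200 gave 2 higher and 3 lower by 2-fold, 16 lower in both summaries and 15 lower than in D386N/Y527F, and one of 50 gave 77 and 69 by 2-fold, with 16 higher in both summaries and 7 higher than in D386N/Y527F. The mean of all probe sets gave 2 and 7 by 2-fold, 2116 higher and 3516 lower genes of the same sign, 13 lower in both summaries and 9 lower than in D386N/Y527F; it needs no agreement among probe sets. A fold of 2 in both summaries left 0 higher and 0 lower. The mean of both 0 h arrays as the baseline, which carries the difference between the lines into each ratio, gave 107 higher and 112 lower than in D386N/Y527F. Of the 30 lower genes, 22 stayed under quantile normalization, 18 with the pseudocount and 12 with the mean of all probe sets. The higher share of 2-fold calls was 33.3%, against 45% under quantile normalization, 46.2% with the pseudocount, 22.2% with the mean of all probe sets, 52.7% at a minimum of 50, 0% in the second summary and 74.4% (58 higher and 20 lower) with the mean of both 0 h arrays. Other causes were not tested. Of the named genes, 44 moved by over 0.14 on the log2 scale in the second summary and 5 under quantile normalization. No paired analysis was possible because each group has 1 array. Signals near the floor limit folds to bounds.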

Other observations

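Splicing and ribosome genes were mostly flat at 1 h, and ratios in brackets are those of the second summary. Of 25 SR proteins and nuclear speckle factors, 3 were higher and 1 lower in R388A/Y527F by the rule, and the median was 0.04 (0.03). The splicing factor gene Srsf5 had 2010.5 at 1 h against 1535.5 at 0 h (0.39, 0.14), and the kinase of SR proteins Clk1 540.0 against 449.9 (0.26, 0.23). In D386N/Y527F Srsf5 had 1778.7 against 1662.6, a ratio of 0.10 (-0.03). Of 23 ribosome biogenesis genes and Myc targets, 4 were higher and 5 lower, and Rrp9, which acts in ribosomal RNA processing, had 108.6 against 221.5 (-1.03, -0.25), with 263.0 at 12 h.

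Matrix genes gave 1 higher and 5 lower of 21. The basement membrane collagens Col4a1 and Col4a2 stood at -0.17 (-0.23) and -0.19 (-0.18) in R388A/Y527F and at 0.12 (0.06) and 0.14 (0.05) in D386N/Y527F. The proteoglycan decorin, Dcn, was higher, 2750.3 at 1 h against 2307.9 at 0 h (0.25, 0.08). Of 14 proteases and inhibitors 2 were higher and 4 lower, among them the matrix metalloproteases Mmp2 (-0.18, -0.19) and Mmp11 (-0.40, -0.17). Of 21 lysosome and autophagy genes 4 were higher and 5 lower, with Fnip1, a partner of folliculin, at 0.29 (0.43) in R388A/Y527F and 0.27 (0.47) in D386N/Y527F. The autophagy kinase gene Ulk1 stood at -0.18 (-0.22) and the galactosidase gene Glb1 at -0.33 (-0.19).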
